A study of Mus musculus with 12 samples.

Results

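The data describe 10 genes of NF-kB and lymphotoxin receptor signalling in lymphatic endothelial cells (LECs) of the mouse lung, namely the receptor genes Ltbr and Tnfrsf1a, the receptor-associated genes Traf1 and Birc3, the Rel family genes Nfkb1, Rela, Nfkb2 and Relb, and the inhibitor genes Nfkbia and Tnfaip3. They were chosen by symbol, as the rows of the count files whose Ensembl identifiers carry these names, and are 10 of 52636 identifiers. LECs were sorted from the lungs of Prox1-EGFP reporter mice as live cells positive for GFP and CD31 and negative for EpCAM and a hematopoietic lineage cocktail, and their RNA was sequenced in 12 libraries. Mice were exposed from 6 weeks of age to cigarette smoke (CS) in a whole-body system, for 8 weeks (acute) or for 24 weeks or more (chronic), and age-matched controls breathed room air (RA). There were 2 acute RA libraries (F and M), 2 acute CS libraries (F and M), 3 chronic RA libraries (F, M1 and M2) and 5 chronic CS libraries (F, M1, M2, M3 and M4), where the letter is the sex given in the label. All groups carry the reporter, in which Prox1 regulatory sequence drives GFP. By the study's methods the cells of an acute library came from several mice of 1 condition, and those of the chronic time point were not pooled, so pooling and time point cannot be told apart.

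NF-kB is a family of transcription factors that are held inactive until a receptor is engaged. In the canonical route, receptors such as the tumor necrosis factor receptor encoded by Tnfrsf1a lead to destruction of the inhibitor IkB-alpha, encoded by Nfkbia, and dimers of RelA and p50 enter the nucleus, where they switch on adhesion molecules, cytokines and their own inhibitors. In the non-canonical route, receptors such as the lymphotoxin beta receptor, encoded by Ltbr, stabilize the kinase NIK (Map3k14), the Nfkb2 product p100 is processed to p52, and dimers of p52 and RelB act on lymphoid tissue genes. Lymphotoxin is made mainly by lymphocytes and signals to stromal and endothelial cells. RNA levels as measured here do not show processing, nuclear entry or activity of these proteins.

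All positions are from GENCODE M21 on GRCm38. Ltbr (ENSMUSG00000030339) lies on chromosome 6 from 125306571 to 125313885, minus strand, and Tnfrsf1a on the same chromosome from 125349362 to 125362484, plus strand. Traf1 lies on chromosome 2 from 34941750 to 34961772 and Birc3 on chromosome 9 from 7848699 to 7873186, both on the minus strand. Of the Rel family, Nfkb1 lies on chromosome 3 from 135584655 to 135691547, minus strand, Rela on chromosome 19 from 5637483 to 5648130, plus strand, Nfkb2 on chromosome 19 from 46304320 to 46312385, plus strand, and Relb on chromosome 7 from 19606217 to 19629438, minus strand. Nfkbia lies on chromosome 12 from 55489410 to 55492647 and Tnfaip3 on chromosome 10 from 19000910 to 19015657, both on the minus strand. Only Nfkb2 shares exon bases with other annotated genes, 830 bases in all with Psd and a lncRNA on the opposite strand, and without strand information their reads cannot be told apart. The highest count of either of those genes in a library was 300, and counts in the sections below are of the whole gene, all exons together.

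Several of these genes are themselves known NF-kB targets, so the sequence just upstream of their starts is shown for the members that hold a match to the NF-kB consensus and for 1 member without. RefSeq windows of 250 bases before a start (GRCm38.p6) were given for 8 of the 10 members, in 11 windows, and Nfkb1 and Relb had none. The 10-base NF-kB consensus was searched on both strands, with overlapping matches kept. It matched in 5 of the 11 windows and in 3 members, Nfkb2, Nfkbia and Tnfaip3, beside 3.90% of the 32851 windows of all genes. At least 2 matches were found in 0.831% of all windows. The sequences below read 5′ to 3′ on the strand of the gene, with matches in capitals. The first is the window of Nfkbia, chr12:55492648-55492897, minus strand.
Nfkbia: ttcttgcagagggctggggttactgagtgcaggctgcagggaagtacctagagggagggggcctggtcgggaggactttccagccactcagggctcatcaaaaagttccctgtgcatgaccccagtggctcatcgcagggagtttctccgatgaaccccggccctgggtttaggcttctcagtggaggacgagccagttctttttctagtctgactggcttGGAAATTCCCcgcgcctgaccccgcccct
The next is the stretch of 137 bases before the second start of Tnfaip3, chr10:19015411-19015547, minus strand, which holds 2 matches.
Tnfaip3: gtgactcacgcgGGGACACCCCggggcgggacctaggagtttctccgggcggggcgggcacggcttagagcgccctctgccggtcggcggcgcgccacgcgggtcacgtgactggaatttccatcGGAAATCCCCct
For Nfkb2, whose 3 windows all held a match, short runs around the matches are shown, at chr19:46304693-46304712 and chr19:46304721-46304736 before start 1, chr19:46305454-46305473 before start 2 and chr19:46305700-46305719 before start 3, all on the plus strand. In the first run 3 matches overlap, 2 of them at the same bases on opposite strands.
Nfkb2 start 1, distal: gtcacGGGAATTCCCCccct
Nfkb2 start 1, proximal: cgaaaGGGGCTTTCCc
Nfkb2 start 2: cggcaGGAATGTCCCcacaa
Nfkb2 start 3: ttttcGGGACTTTCCtaagc
The window of Ltbr, chr6:125313886-125314135, minus strand, is given for contrast and held no match.
Ltbr: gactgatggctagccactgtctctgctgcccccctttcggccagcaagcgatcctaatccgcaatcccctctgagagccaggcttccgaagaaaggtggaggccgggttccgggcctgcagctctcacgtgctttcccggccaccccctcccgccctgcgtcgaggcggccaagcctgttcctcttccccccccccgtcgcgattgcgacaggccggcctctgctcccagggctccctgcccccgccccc
A match is a description of these letters, and its absence says only that the letters are not in this window.

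Total counts ranged from 18821438 to 56998590, and 3 of the chronic CS libraries (F, M1 and M2) were the shallowest, at up to 22885446 counts, while M3 and M4 had at least 45436986. Chronic values of the members are therefore also given within each of these depth sets. The sort was checked with marker genes. Prox1 lay between 1814 and 2476 CPM (TMM-scaled read counts relative to library size) in every library except acute CS F and M, at 1042 and 1262 CPM. The summed level of 8 leukocyte markers was 126 to 133 CPM in acute RA, 2275 and 1627 CPM in acute CS F and M, 107 to 190 CPM in chronic RA and 118 to 385 CPM in chronic CS. Ptprc, which encodes CD45, was at 285 and 154 CPM in acute CS F and M and at most 54.3 CPM elsewhere. Cd3e of T cells reached 13.5 and 47.2 CPM in acute CS F and M, and Epcam of epithelium 16.1 and 2.30 CPM, beside at most 7.52 and 6.33 CPM in the other libraries.

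All 10 genes passed the filter on low counts and were among the 21440 genes tested. Levels between genes were compared as FPKM, which divides by exon length. In chronic RA the order ran from Nfkbia at 286 ± 19.6 FPKM (SD, n = 3) through Tnfrsf1a at 88.7 ± 3.01, Rela at 77.6 ± 3.44 and Ltbr at 64.2 ± 2.76 FPKM, whose ranges were separate. Relb at 30.7 ± 2.23 FPKM and Nfkb2 at 27.0 ± 3.97 FPKM overlapped, and Birc3 followed at 10.9 ± 0.278 FPKM. The lowest were Nfkb1 at 6.64 ± 0.904, Traf1 at 6.15 ± 1.10 and Tnfaip3 at 4.44 ± 1.06 FPKM, whose ranges overlapped. In acute RA the order was the same, but Rela and Ltbr overlapped, at 65.9 ± 4.43 and 64.4 ± 4.80 FPKM (SD, n = 2), Birc3, at 6.52 ± 0.153 FPKM, overlapped with Nfkb1, and Nfkb1 and Traf1 were separate, at 5.83 to 7.16 and 5.18 to 5.29 FPKM. In chronic CS Ltbr was at 48.2 FPKM (44.0 to 52.0 FPKM) and Rela at 73.1 FPKM (66.0 to 86.1 FPKM), without overlap.

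**Figure D1:**
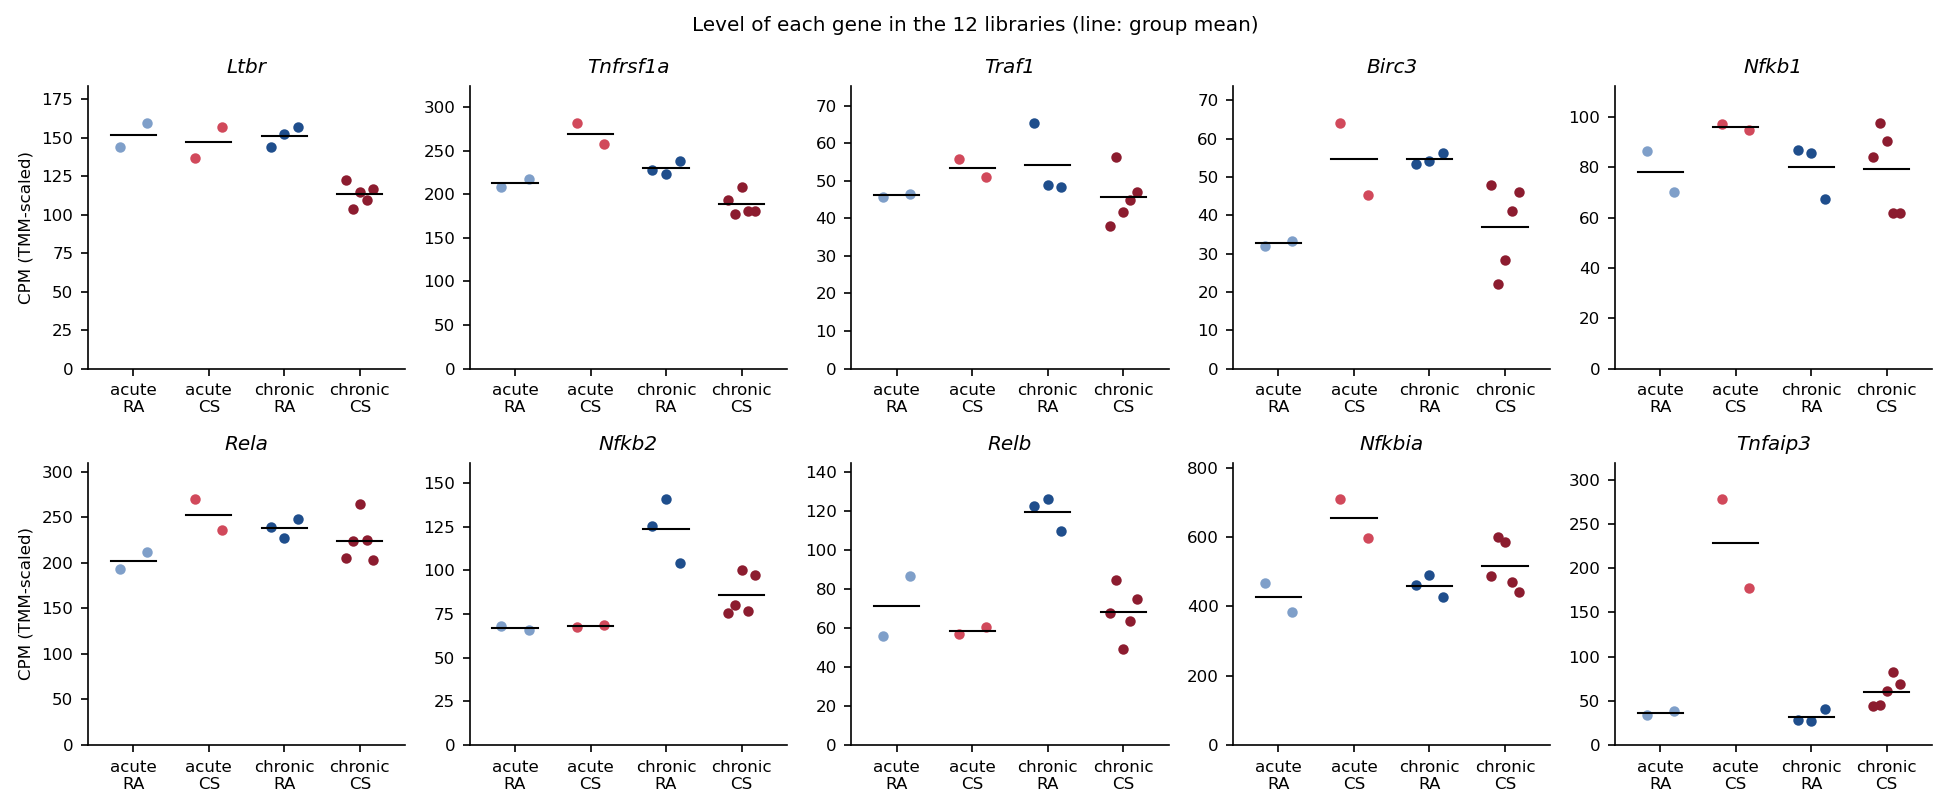
CPM of each of the 10 genes (y axis, linear from 0, TMM-scaled) in the 12 libraries, by group (x axis), with 1 point per library and a line at the group mean. Tnfaip3 stands highest in the 2 acute CS libraries, at 178 and 278 CPM, and Relb and Nfkb2 stand highest in the 3 chronic RA libraries.

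The first comparison asked how acute smoke exposure changed these genes. Tnfaip3, which encodes the ubiquitin-editing inhibitor A20 that ends NF-kB signalling, rose 6.34-fold and was the only one of the 10 to pass the test. It was counted at 33.5 and 38.4 CPM in acute RA F and M and at 278 and 178 CPM in acute CS F and M. The groups did not overlap, and the lower smoke library stood well above both controls. The log2 fold change (log2FC) was 2.66, with a standard error (SE) of 0.34 and an adjusted p of 0.00400 (edgeR's quasi-likelihood F-test, adjusted by Benjamini-Hochberg), and 3.47% of all genes passed this limit. The call was lost without acute RA F (log2FC 2.57, edgeR's adjusted p = 0.0564) or without acute RA M (2.73, 0.0766), where 79 and 3 of all genes were called in place of 745, while it held without acute CS F (2.31, 0.0252).

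Nfkbia, which encodes IkB-alpha, was counted at 468 and 384 CPM in acute RA F and M and at 709 and 599 CPM in acute CS F and M. Both smoke libraries lay above both controls, with a log2FC of 0.62 (SE 0.17) and edgeR's adjusted p = 0.0884. Of the receptors, Tnfrsf1a was counted at 209 and 218 CPM in acute RA and 282 and 258 CPM in acute CS, a log2FC of 0.34 (edgeR's adjusted p = 0.174). Ltbr was counted at 144 and 160 CPM in acute RA and 137 and 157 CPM in acute CS, with overlapping groups and a log2FC of -0.046 (SE 0.13).

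Birc3, which encodes the ubiquitin ligase cIAP2 of the tumor necrosis factor receptor complex, was counted at 32.1 and 33.2 CPM in acute RA and at 64.1 and 45.2 CPM in acute CS F and M, a log2FC of 0.74 (SE 0.33, edgeR's adjusted p = 0.299). The log2FC of Birc3 was 0.47 without acute CS F and 0.97 without acute CS M. Traf1, an adaptor of the same complexes, lay at 45.7 and 46.6 CPM in acute RA and 55.7 and 51.0 CPM in acute CS. The difference was about the size of its error, at 0.21 on the log2 scale (SE 0.21). Among the canonical Rel genes, Rela was counted at 193 and 212 CPM in acute RA and 270 and 236 CPM in acute CS (log2FC 0.32, edgeR's adjusted p = 0.309). Nfkb1 was at 86.4 and 70.4 CPM in acute RA and 97.3 and 95.1 CPM in acute CS (0.30, 0.651). The log2FC of Nfkb1 was 0.12 without acute RA M and 0.45 without acute RA F.

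In both non-canonical Rel genes the acute groups overlapped. Nfkb2 was counted at 68.4 and 65.7 CPM in acute RA and at 67.4 and 69.0 CPM in acute CS, a log2FC of 0.025 (SE 0.18). Relb was counted at 55.6 and 86.6 CPM in acute RA F and M and at 57.1 and 60.2 CPM in acute CS, a log2FC of -0.28 (SE 0.25), with the acute CS libraries between the controls. Thus 7 of the 10 members were higher in both acute CS libraries than in both acute RA libraries, beside 27.4% of all genes, and 5 had an unadjusted p under 0.05, beside 15.7% of all genes. The exceptions were Ltbr, Nfkb2 and Relb. The median log2FC of the members was 0.31, beside 0.041 over all genes tested. DESeq2 called Nfkbia and Tnfrsf1a along with Tnfaip3, beside 8.98% of all genes.

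Leukocytes also use these genes, and the acute CS libraries that held more Tnfaip3 RNA held more leukocyte RNA. After acute CS all 8 leukocyte markers rose (median log2FC 3.98), and acute CS F was above acute CS M for both their sum and Tnfaip3. The summed macrophage markers were at 6561 and 3809 CPM in acute CS F and M against 1109 and 983 CPM in acute RA F and M, although Mrc1, 1 of the 7, fell (log2FC -0.94, edgeR's adjusted p = 0.0155). Neutrophil markers were at 1068 CPM in acute CS F and 19.2 CPM in acute CS M, beside 10.2 to 25.5 CPM in acute RA. Alveolar epithelium markers were split in the same way, at 6246 CPM in acute CS F and 206 CPM in acute CS M, beside 738 and 1037 CPM in acute RA. Blood endothelium markers summed to 9267 and 11012 CPM in acute RA F and M and 9169 and 8870 CPM in acute CS. Of these 6 markers 4 were higher and 2 lower, and Sema3g was called higher (log2FC 3.17). The markers of B cells summed to 314 and 193 CPM in acute CS F and M, beside 67.8 and 80.2 CPM in acute RA, and those of T and NK cells to 108 and 270 CPM, beside 24.7 and 19.2 CPM. Mesenchyme markers summed to 121 and 173 CPM in acute RA F and M and 515 and 847 CPM in acute CS F and M, with all 6 higher and 4 called. Immediate early genes, which respond to handling and dissociation, summed to 16054 and 19561 CPM in acute RA and 10743 and 9634 CPM in acute CS, with 8 of 9 lower and 4 called. The sum of the 8 lymphatic markers was also lower, at 15254 and 17066 CPM in acute RA and 6485 and 9822 CPM in acute CS, with 7 lower and Lyve1 higher (log2FC 0.67). None of the defining markers Ptprc, Cd3e, Cd79a and Epcam was at 0 in these 4 libraries. The part of these markers in the changes of the members was not tested, and in bulk RNA fewer cells of a type and less RNA per cell cannot be told apart. Across the 12 libraries the genes with a level most like that of Tnfaip3 were Ucp2, Fyb and Lcp1, with Pearson's r of log2 CPM from 0.959 to 0.968. These 3 genes were chosen after their values were seen, and Lcp1 is 1 of the 8 leukocyte markers.

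**Figure D2:**
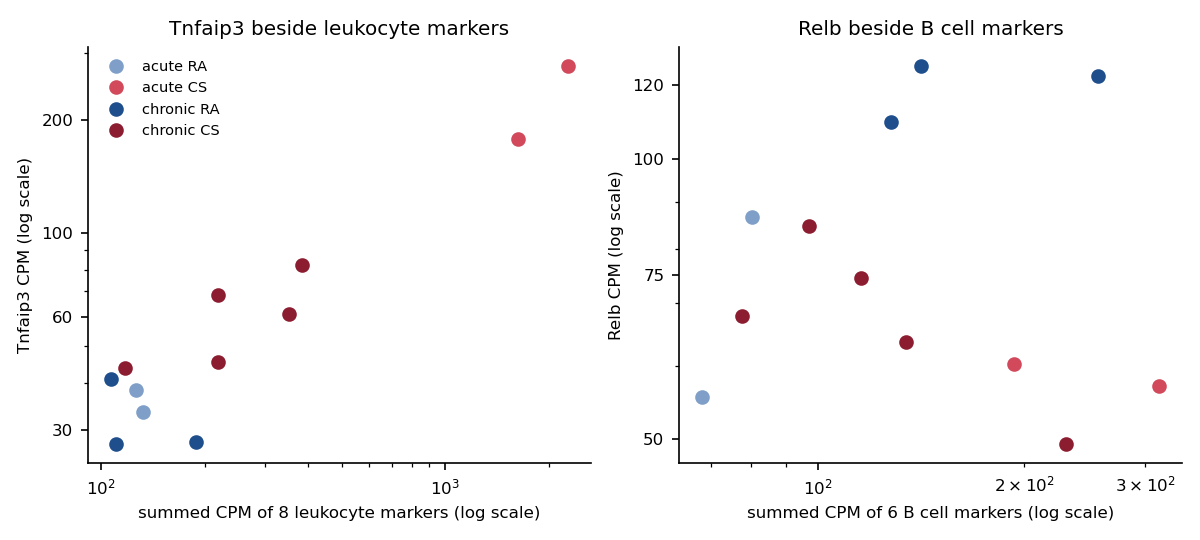
Left, Tnfaip3 CPM (y axis) against the summed CPM of 8 leukocyte markers (x axis), and right, Relb CPM against the summed CPM of 6 B cell markers, all on log scales, with 1 point per library coloured by group. The 2 acute CS libraries lie apart at the upper right of the left panel, and the 3 chronic RA libraries lie above all others in the right panel.

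The second comparison was chronic CS against chronic RA. No member passed the adjusted limit of edgeR, and neither did any other gene (0.00% of the 21440 tested), while 6 members had an unadjusted p under 0.05, beside 10.9% of all genes. In these 6 the groups did not overlap. Relb, Ltbr, Nfkb2, Tnfrsf1a and Birc3 were lower in every chronic CS library than in every chronic RA library, beside 5.49% of all genes. Tnfaip3 was higher in every chronic CS library, beside 3.92% of all genes. For each of the 6 an exact two-sided permutation test over the 8 libraries gave p = 0.0357, over 10 such tests and without adjustment. This is the smallest p that 5 libraries against 3 allow. Groups without overlap always give it, so it restates the separation and adds no support. The median log2FC of the members was -0.27, beside 0.014 over all genes. DESeq2 called 4 of them, beside 2.44% of all genes, with Ltbr, Nfkb2 and Relb lower and Tnfaip3 higher.

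Relb, the partner of p52 in the non-canonical route, was counted at 123, 126 and 109 CPM in chronic RA F, M1 and M2. In chronic CS F, M1, M2, M3 and M4 it was counted at 67.7, 84.7, 49.4, 63.5 and 74.6 CPM. The highest smoke library stood below the lowest control by more than the spread of the controls. The log2FC was -0.81 (SE 0.18, edgeR's unadjusted p = 7.61e-04, adjusted p = 0.227), a level 1.75 times lower. It was -0.81 with F, M1 and M2 alone and -0.79 with M3 and M4 alone.

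Nfkb2, which encodes p100 and p52, was counted at 126, 141 and 104 CPM in chronic RA F, M1 and M2. In chronic CS it was counted at 75.8, 80.3, 100.3, 76.5 and 97.2 CPM in F, M1, M2, M3 and M4. Here the gap between the groups was narrow, between chronic RA M2 and chronic CS M2. The log2FC was -0.52 (SE 0.13, edgeR's adjusted p = 0.261), and it was -0.52 and -0.51 within the shallower and the deeper set.

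Ltbr was counted at 144, 153 and 157 CPM in chronic RA F, M1 and M2 and at 122, 104, 115, 109 and 117 CPM in chronic CS F, M1, M2, M3 and M4. All 5 smoke libraries lay below all controls of both time points, which spanned 144 to 160 CPM. The log2FC was -0.41 (SE 0.092, edgeR's adjusted p = 0.231), the smallest error of the non-canonical genes, and it was -0.39 and -0.42 within the shallower and the deeper set. Tnfrsf1a was counted at 228, 224 and 239 CPM in chronic RA and at 194, 177, 209, 181 and 181 CPM in chronic CS, a log2FC of -0.29 (SE 0.086, edgeR's adjusted p = 0.324). Scaled by library size alone, the exact permutation p of Tnfrsf1a and of Nfkb2 was 0.0714 each.

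Birc3 was counted at 53.4, 54.2 and 56.1 CPM in chronic RA, a narrow range, and at 47.9, 22.0, 28.3, 41.0 and 46.1 CPM in chronic CS F, M1, M2, M3 and M4. The smoke libraries were spread over more than the distance to the controls. The log2FC was -0.56 (SE 0.24, edgeR's adjusted p = 0.435), and it was -0.72 in the shallower and -0.33 in the deeper set. Traf1 overlapped between the groups, at 65.5, 48.8 and 48.4 CPM in chronic RA and 38.0, 56.5, 41.8, 44.9 and 47.1 CPM in chronic CS. Its log2FC was -0.25 (edgeR's adjusted p = 0.564), and it was -0.083 without chronic RA F.

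The canonical Rel genes and Nfkbia overlapped between the chronic groups. Rela was counted at 239, 228 and 249 CPM in chronic RA and 203 to 265 CPM in chronic CS (log2FC -0.088, SE 0.10), and Nfkbia at 461, 492 and 429 CPM and at 443 to 600 CPM (0.17, 0.13). Nfkb1 was counted at 87.0, 85.6 and 67.5 CPM in chronic RA and at 84.1, 97.7, 90.3, 61.8 and 62.0 CPM in chronic CS F, M1, M2, M3 and M4, a log2FC of -0.016 (SE 0.17). The chronic CS values of Nfkb1 fell apart by depth, with a log2FC of 0.20 in the shallower and -0.37 in the deeper set.

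Tnfaip3 was the only member that stood above its controls after both exposures. In chronic RA F, M1 and M2 it was counted at 27.9, 27.5 and 40.9 CPM, and in chronic CS F, M1, M2, M3 and M4 at 43.8, 45.3, 61.1, 82.4 and 68.6 CPM. The lowest smoke library was close to chronic RA M2. The log2FC was 0.91 (SE 0.25, edgeR's adjusted p = 0.288), and it was 0.66 in the shallower and 1.23 in the deeper set.

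Markers of other cells also differed between the chronic groups, and their part in these values was not tested. The summed alveolar epithelium markers were at 239 to 451 CPM in chronic RA and 889 to 4488 CPM in chronic CS. In the same order, those of neutrophils were at 5.19 to 13.8 CPM and 22.9 to 159 CPM. Those of mesenchyme were at 109 to 140.3 CPM and 157 to 289 CPM. Those of blood endothelium were at 12564 to 13412 CPM and 8113 to 11538 CPM, and none of these sums overlapped. The 6 blood endothelium markers were split, with 3 higher and 3 lower, and Sema3g was higher in every chronic CS library (log2FC 1.05). Leukocyte markers overlapped, and within chronic CS they were at 118, 219, 353, 385 and 218 CPM in F, M1, M2, M3 and M4, so that M2 and M3 were high in them and M3 and M4 in Tnfaip3. Macrophage markers overlapped too, at 721 to 1028 CPM in chronic RA and 911 to 2340 CPM in chronic CS, with M3 highest. Of these 7 markers 6 were higher and 1 lower. Cd79a of B cells was at 13.7 to 16.8 CPM in chronic RA and 6.41 to 11.1 CPM in chronic CS, without overlap. The sum of the 6 B cell markers overlapped, at 128 to 256 CPM and 77.6 to 230 CPM, and of these markers only Ms4a1 was at 0, in chronic CS M1 and M2. Lymphatic markers overlapped, at 19934 to 22931 CPM in chronic RA and 14901 to 21220 CPM in chronic CS.

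**Figure D3:**
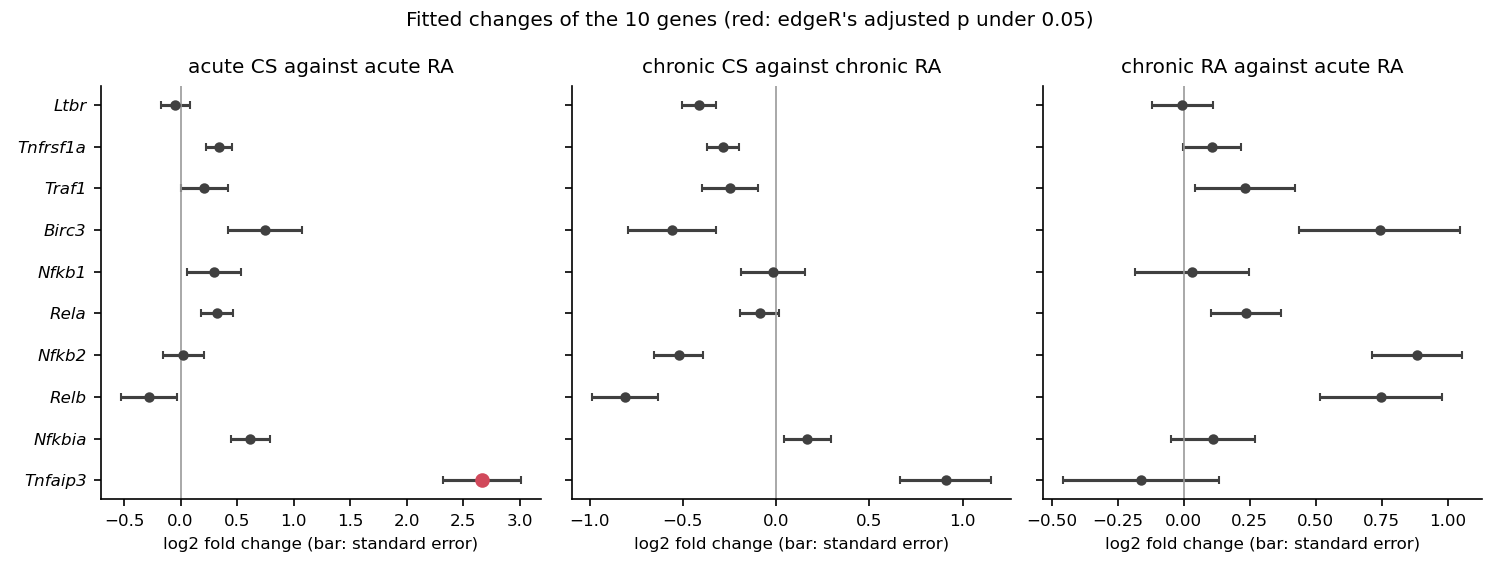
Fitted log2 fold changes (x axis) of the 10 genes (y axis) in 3 comparisons, with bars of 1 standard error, and red where edgeR's adjusted p is under 0.05. Only Tnfaip3 in the acute comparison, at 2.66, is red, and Relb, Nfkb2 and Ltbr lie left of 0 in the chronic panel, at -0.81, -0.52 and -0.41.

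The comparison of chronic RA with acute RA gives the levels in unexposed mice that were older by the difference in exposure time. It shares the chronic RA libraries with the second comparison, so a high value there enters both with opposite sign. No member passed the adjusted limit (0.00% of all genes did), 3 had an unadjusted p under 0.05, beside 7.01% of all genes, and 6 were higher in every chronic RA library, beside 17.7%. Nfkb2 was counted at 68.4 and 65.7 CPM in acute RA and 104 to 141 CPM in chronic RA, a log2FC of 0.88 (SE 0.17, edgeR's unadjusted p = 2.81e-04, adjusted p = 0.215), and DESeq2 called it, beside 1.18% of all genes. Relb was higher by 0.75 (SE 0.23, edgeR's adjusted p = 0.546) and Birc3 by 0.74 (SE 0.30, edgeR's adjusted p = 0.700). With a library left out the value of Relb ranged from 0.46 to 1.08. Rela, Traf1 and Tnfrsf1a made up the 6, with log2FC values of 0.24, 0.23 and 0.11, while Ltbr (-0.0049), Nfkb1 (0.031), Nfkbia (0.11) and Tnfaip3 (-0.16) overlapped.

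In Relb, chronic RA was thus the group that stood apart, with 109 to 126 CPM beside 49.4 to 86.6 CPM in the other 9 libraries. In Nfkb2 chronic RA was also highest, at 104 to 141 CPM. There, however, chronic CS, at 75.8 to 100.3 CPM, in turn lay above every acute library, at 65.7 to 69.0 CPM. In Ltbr it was chronic CS that stood apart from the other 3 groups. Immediate early genes summed to 16054 and 19561 CPM in acute RA, 10743 and 9634 CPM in acute CS, 23251 to 28664 CPM in chronic RA and 22050 to 27805 CPM in chronic CS. The 6 B cell markers summed to 67.8 and 80.2 CPM in acute RA and 128 to 256 CPM in chronic RA, with Cd79a at 1.67 and 5.20 CPM against 13.7 to 16.8 CPM. The sum of the 8 lymphatic markers was also higher in chronic RA, at 19934 to 22931 CPM, than in acute RA, with 6 higher and 2 lower, Prox1 among the latter (log2FC -0.26). Blood endothelium markers summed to 9267 and 11012 CPM in acute RA and 12564 to 13412 CPM in chronic RA, with 4 higher and 2 lower. Alveolar epithelium markers summed to 738 and 1037 CPM and to 239 to 451 CPM. The part of these in the room air values was not tested, and time point and pooling cannot be told apart.

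Ratios within a library do not depend on the scaling of the library. The ratio of Relb to Rela in FPKM was 0.405, 0.437 and 0.348 in chronic RA F, M1 and M2 and 0.260, 0.299, 0.148, 0.223 and 0.291 in chronic CS F, M1, M2, M3 and M4, with no overlap. In acute RA it was 0.228 and 0.323 and in acute CS 0.167 and 0.201. The ratio of Nfkb2 to Nfkb1 was 4.07 ± 0.263 (SD, n = 3) in chronic RA and 2.97 ± 0.778 (SD, n = 5) in chronic CS. It overlapped between them, as chronic CS M4 reached 4.12, while chronic CS M3, with similar Nfkb1, was at 3.26. Both ratios were higher in every chronic RA library than in every acute library.

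**Figure D4:**
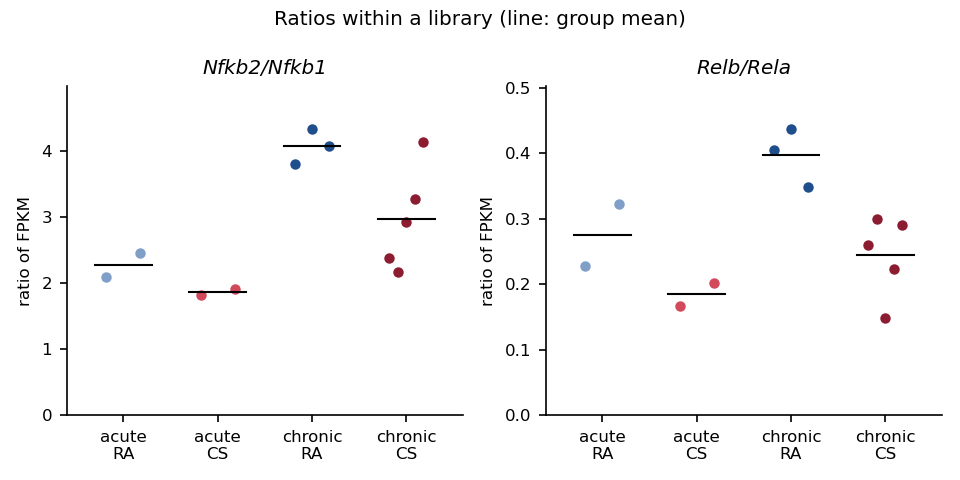
Ratio of FPKM (y axis, linear from 0) of Nfkb2 to Nfkb1 (left) and of Relb to Rela (right) by group (x axis), with 1 point per library and a line at the group mean. The Relb to Rela ratio lies between 0.348 and 0.437 in chronic RA and at most at 0.323 in every other library.

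The difference between the acute and the chronic smoke effect was tested as an interaction. All 10 members had a higher fold change after acute than after chronic CS, beside 11206 of all 21440 genes. The median difference was 0.50 on the log2 scale, beside 0.042 over all genes. For the 8 leukocyte markers the median difference was 3.05, with all 8 positive. For the 8 lymphatic markers it was -0.92, with 7 negative, and the part of these markers was not tested. No member passed edgeR's adjusted limit, beside 0.452% of all genes, and 6 had an unadjusted p under 0.05, beside 11.9%. The smallest adjusted p-values from edgeR were those of Tnfaip3 (difference 1.76, SE 0.40, adjusted p = 0.0933) and Tnfrsf1a (0.63, SE 0.15, adjusted p = 0.0958), which DESeq2 called, beside 4.27% of all genes. By edgeR the acute and chronic values therefore stand side by side without a call that they differ.

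The other genes of the pathway were taken from a list of 62, of which 61 were tested and Ccl19 was not. After acute CS 6 of them rose and 3 fell, beside 2.75% and 0.723% of all genes, and their median log2FC was 0.34, beside 0.041. The adhesion molecule genes Icam1 and Vcam1, by which leukocytes bind to endothelium, were among the 6. Icam1 was counted at 58.3 and 65.1 CPM in acute RA F and M and 356 and 253 CPM in acute CS F and M (log2FC 2.30, SE 0.27, edgeR's adjusted p = 0.00364), and Vcam1 at 18.1 and 11.9 CPM and at 150 and 315 CPM (3.95, 0.67, 0.0106). Cxcl12, which encodes a lymphocyte chemokine, was at 66.9 and 79.9 CPM in acute RA and 381 and 158 CPM in acute CS (1.88, 0.34, 0.0143). The stress response gene Ier3 was at 71.8 and 57.6 CPM and at 268 and 171 CPM (1.76, 0.33, 0.0154). Among receptors, Tnfrsf1b, the second tumor necrosis factor receptor, was at 40.4 and 22.3 CPM and at 174 and 113 CPM (2.20, 0.37, 0.00989). Nfkbid, an atypical nuclear IkB protein gene, was at 2.74 and 4.14 CPM and at 58.8 CPM (F) and 23.02 CPM (M) (3.57, 0.60, 0.0102).

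The 3 that fell were the receptor genes Cd40 and Tnfrsf11a (RANK), both of which can feed the non-canonical route, and Nfkbie, which encodes IkB-epsilon. Cd40 was counted at 89.2 and 94.8 CPM in acute RA and at 52.6 and 52.8 CPM in acute CS (log2FC -0.80, edgeR's adjusted p = 0.0331). Tnfrsf11a was at 184 and 140 CPM and at 68.0 and 97.1 CPM (-0.97, 0.0481), and Nfkbie at 125 and 156 CPM and at 59.3 and 85.6 CPM (-0.96, 0.0353). The leukocyte, mesenchyme and lymphatic markers given above moved with these genes too, with median log2FC values of 3.98, 2.27 and -1.05, and their part was not tested. The number called depended on single libraries, with 2 called without acute RA F, 0 without acute RA M, 2 without acute CS F and 13 without acute CS M. The number over all genes moved too, from 745 to 79, 3, 175 and 858. Of the pathway calls, 0 were lower calls without acute RA F, acute RA M or acute CS F, as with only the groups compared, and with sex as a covariate 1 gene was called lower.

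Of the ligands of the lymphotoxin beta receptor, the lymphotoxin beta gene Ltb was expressed well above the others. It was counted at 33.2 and 41.9 CPM in acute RA and 36.3 and 55.9 CPM in acute CS. In chronic RA F, M1 and M2 it was at 102, 65.8 and 64.0 CPM, and in chronic CS F, M1, M2, M3 and M4 at 36.3, 52.4, 31.2, 29.9 and 37.2 CPM, without overlap. Its partner Lta was at most at 2.51 CPM in any library, and Tnfsf14 (LIGHT) at 2.89 CPM. Among ligands of other receptors, Cd40lg was at most at 3.26 CPM and Tnfsf11 (RANKL) at 1.28 CPM. Tnf was at 24.8 and 4.77 CPM in acute CS F and M and at most at 3.78 CPM elsewhere. The list holds 4 proposed outputs of the non-canonical route. Only Cxcl12 was called after acute CS. Cxcl13 was higher in both acute CS libraries too (edgeR's adjusted p = 0.168), but at most at 1.60 CPM in any library. Madcam1 was at most at 9.21 CPM and Ccl19 at 0.260 CPM. The level of Ccl19 is uncertain since reads can be lost to its near-identical copies. All 3 tested outputs were higher in every chronic RA library than in acute RA, beside 17.7% of all genes. None of them passed edgeR's adjusted limit there.

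After chronic CS none of the 61 passed edgeR's adjusted limit, 16 had an unadjusted p under 0.05, beside 10.9% of all genes, and DESeq2 called 6 of them, beside 2.44% of all genes. The median log2FC was -0.038, beside 0.014, with 28 positive and 33 negative. The smallest p was that of Nfkbie, at 192, 164 and 149 CPM in chronic RA F, M1 and M2 and 93.8, 80.8, 69.0, 90.9 and 95.0 CPM in chronic CS F, M1, M2, M3 and M4 (log2FC -0.97, edgeR's adjusted p = 0.145). Tnip1, which encodes a partner of A20, was at 93.7 to 105 CPM in chronic RA and 51.9 to 73.2 CPM in chronic CS (-0.64, 0.199). Ltb (-1.05, 0.227) and Bcl3, which encodes a nuclear partner of p50 and p52 (-0.70, 0.330), were also lower in every chronic CS library. Il6 was higher in each (3.52, 0.312), at 0.125 to 0.374 CPM in chronic RA and 0.788 to 8.02 CPM in chronic CS. Icam1, at 103 to 113 CPM in chronic RA and 89.2 to 153 CPM in chronic CS, overlapped.

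**Figure D5:**
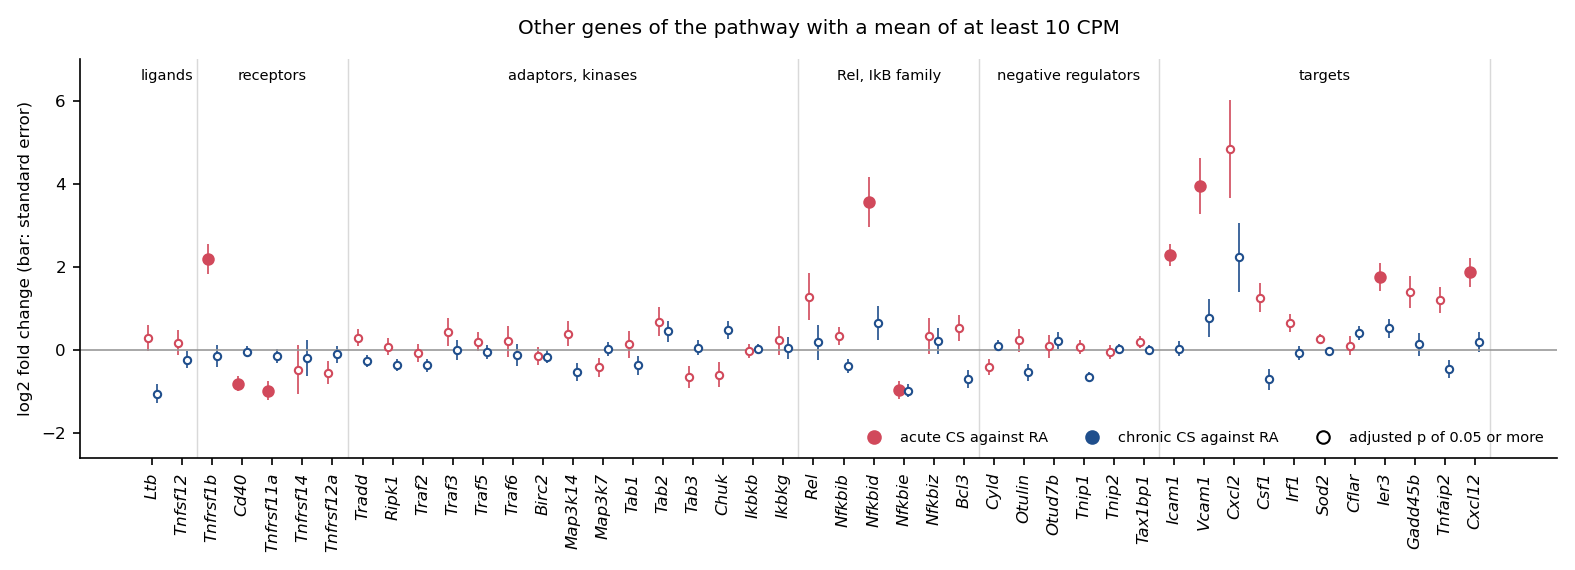
Log2 fold changes (y axis, bars of 1 standard error) of the 45 other pathway genes with a mean of at least 10 CPM (x axis, ordered by role), after acute CS (red) and chronic CS (blue), filled where edgeR's adjusted p is under 0.05. The filled points are all acute, 6 above and 3 below 0, and Nfkbie lies near -0.96 in both comparisons.

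Besides those of Tnfaip3, the genes with the most similar level over the 12 libraries are given for 3 members as a description. For Ltbr they were Srpr, Synpo2l and Hfe2 (Pearson's r of log2 CPM 0.950, 0.922 and 0.915), for Nfkb2 they were Mllt1, Gm16332 and Bmp7 (0.902, 0.897 and 0.891), and for Nfkbia they were D630045J12Rik, Pik3r1 and Coro2b (0.941, 0.938 and 0.934). For Rela the closest gene was the B cell marker Cd79b (0.936), named after its value was seen. None of these belongs to the pathway list, and the 12 libraries share their group structure and depth sets.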

How the data were processed

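RNA of sorted lung LECs was measured in 12 libraries made with the SMART-Seq v4 and Nextera XT kits, which do not mark strand. The deposited values are raw counts of reads for each Ensembl gene. The authors trimmed the reads and aligned them to GRCm38 with STAR, and FastQC 0.11.9 is named for quality control (per the labels). The strand setting and annotation release are not given in the sources used here. Groups were taken from the titles. Gene names came from GENCODE M21, which lacked 147 of 52636 identifiers.

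Counts were fitted in R 4.3.3 with edgeR 4.0.16 (filterByExpr, TMM factors, quasi-likelihood F-test, all 12 libraries by group), with Benjamini-Hochberg adjustment over 21440 genes and a limit of 0.05. The log2 CPM of single libraries had a prior count of 2. Exact permutation tests used the 8 chronic libraries. CPM in the text are scaled by TMM factors, and FPKM by the union of exons. Figures were drawn in Python 3.11.15 with matplotlib 3.10.9. Nothing says that libraries of a group came from separate mice beyond the pooling stated, so p-values measure the spread between these libraries. A floor of 3 counts was 0.0526 to 0.159 CPM and covers counting error only. In simulated counts of the acute comparison edgeR called 19 of 93 genes (20.4%) changed by 2 on the log2 scale and 2 of 97 (2.06%) changed by 1. For the chronic comparison these were 41 of 100 (41%) and 27 of 91 (29.7%). The changed genes were drawn at random from all genes tested, whatever their level. Far fewer were changed than the 745 genes called in the acute data. These shares therefore do not measure the power for the members.

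Named were all members, the pathway genes past the adjusted limit in the acute comparison, the 5 with the smallest p in the chronic comparison, the 3 genes most like Ltbr, Nfkb2 and Nfkbia, and the cell markers. The other ligands and non-canonical targets of the pathway list, and the genes most like Tnfaip3 and Rela, were named after their values were seen. The members and gene lists were chosen with earlier results of these data known. Alternatives were DESeq2 1.42.0, other scalings, no filter, the compared groups alone, a sex term, replicate blocks, robust estimation, leaving out each library, the depth sets of chronic CS and a prior count of 0.5.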

Additional observations from a re-analysis of the deposited data

Results flagged for a closer look

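Tnfrsf1a, Birc3 and Nfkb2 were singled out because each acute CS library was above the acute RA mean and each chronic CS library below the chronic RA mean. The difference between the acute and the chronic log2 fold change was 0.63 for Tnfrsf1a, 1.30 for Birc3 and 0.55 for Nfkb2. By edgeR's interaction test the adjusted p-values were 0.0958, 0.208 and 0.359, so none passed the limit. For Nfkb2 the acute groups overlapped, and the acute log2 fold change of 0.025 turned negative by library size, without a filter and without acute RA M. In chronic CS, the only group with enough libraries for the check, no member had a library far enough from the others to be singled out, and the part of other cells' RNA in these values was not tested.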

How the results depend on the processing

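The number of members called changed with the tool, since DESeq2 called 3 in the acute comparison, 4 in the chronic one, 1 between the room air groups and 2 for the difference, beside 1926, 524, 253 and 916 of all 21440 genes. Leaving out each library gave 0 to 1 called members in the acute comparison. The acute count of pathway genes was 18 with DESeq2, 1 with only the groups compared, 2 with the replicate block (0 of them lower) and 0 to 13 with a library left out, and the chronic count was 6 with DESeq2 and 1 without a filter. Same-numbered libraries correlated at -0.0419 to 0.0693 over 5 pairs, and 0 of 3 chronic RA libraries was closest to the library of its own number. With 2 libraries per acute group the 2 acute pairs share 1 value, 0.0693, and the letters F and M mark sex. These values therefore cannot settle whether the replicate numbers pair the libraries. With the replicate block Tnfaip3 was called in the acute comparison (1 member), as without it, and 0 members in the chronic one and for the difference, and the room air comparison could not be fitted. The log2 fold change of 6 members changed sign under some alternative. In the acute comparison Ltbr was at -0.15 to 0.053 and Relb at -0.56 to 0.044 with a library left out, and Nfkb2 at -0.0088 by library size, -9.2e-04 without a filter and -0.037 to 0.055 with a library left out. In the chronic comparison Nfkb1 was at 0.020 with DESeq2 and with its size factors in edgeR, 0.076 by library size, 0.0063 with sex as a covariate, 0.19 with the replicate block, 0.20 with F, M1 and M2 and -0.12 to 0.062 with a library left out, Rela was at 0.0012 by library size, and Nfkbia at -0.012 with M3 and M4. Scaling by library size moved the median of all genes to 0.10 in the chronic and -0.10 in the room air comparison. The causes were not tested.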
